A study of Mus musculus with 16 samples.

Results

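Respiratory complex I (NADH:ubiquinone oxidoreductase) was followed in the pressure-overloaded mouse heart through the nuclear genes that encode its subunits. The members were the probe sets of the deposited table whose platform annotation gave exactly 1 gene symbol starting with Ndufa, Ndufb, Ndufc, Ndufs or Ndufv, with the assembly factors named Ndufaf left out. The rule used names only and no measured value. It gave 68 probe sets for 34 genes, of 22690 probe sets in the table and 12393 genes named by 1-symbol probe sets. The 8 probe sets that name a subunit together with another gene, a pseudogene for example, were not used.

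The series asked how the early transcriptional response to pressure overload of the heart depends on sex. C57BL/6J mice aged 12 to 14 weeks underwent transverse aortic constriction (TAC), a narrowing of the aortic arch by a band that makes the left ventricle eject against higher pressure, or a sham operation. Total RNA of the left ventricle was taken 14 days after surgery, and each animal was hybridised on its own Affymetrix mouse 430A array. Both operations were done in both sexes, giving sham and TAC groups of males and of females, each with n = 4 animals of the same wild-type strain and with no other allele or drug as a variable. Per the labels, anaesthesia was by ketamine with isoflurane and buprenorphine followed surgery; these are stated with the TAC procedure. Arrays are named by group and by the number in the sample title, so that numbers 3 in male TAC and 4 in female TAC do not occur.

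Complex I is the entry point of electrons from NADH into the respiratory chain of mitochondria. It is shaped like an L: the arm in the matrix holds the N module, which oxidises NADH, and the Q module, which passes the electrons over iron-sulfur clusters to ubiquinone, while the membrane arm pumps protons. Core subunits carry the catalysis and are encoded partly in the mitochondrial genome, and the many accessory subunits surround and stabilise them. The working ventricle is among the tissues richest in mitochondria, and most of these lie in cardiomyocytes. Members were grouped as the N module (9 genes, 22 probe sets), the Q module (5 genes, 12 probe sets), the proximal membrane arm (8 genes, 12 probe sets) and the distal membrane arm (11 genes, 21 probe sets). Ndufa4 (1 gene, 1 probe set) fits the naming rule, although its product is today assigned to cytochrome c oxidase, complex IV, and it is given apart.

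To show what lies upstream of genes that responded and of one that did not pass the test, the 250 bases before the annotated start are printed for Ndufs4 and Ndufs3, whose signal was lower after TAC in both sexes, and for Ndufb7, whose change did not pass the threshold. The sequences are those of RefSeq on GRCm38.p6, 5′ to 3′ on the strand of the gene, with motif matches in capitals.
Ndufs4, chr13:114388095-114388344, minus strand: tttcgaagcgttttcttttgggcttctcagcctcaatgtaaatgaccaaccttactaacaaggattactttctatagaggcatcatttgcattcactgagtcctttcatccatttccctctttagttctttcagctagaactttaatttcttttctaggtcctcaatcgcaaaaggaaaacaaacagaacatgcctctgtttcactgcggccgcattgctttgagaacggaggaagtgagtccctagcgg
Ndufs3, chr2:90904722-90904971, minus strand: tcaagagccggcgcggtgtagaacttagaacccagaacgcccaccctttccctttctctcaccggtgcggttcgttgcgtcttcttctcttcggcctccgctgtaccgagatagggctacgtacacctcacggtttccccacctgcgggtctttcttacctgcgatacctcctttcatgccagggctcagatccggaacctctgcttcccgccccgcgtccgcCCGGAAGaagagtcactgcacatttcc
Ndufb7, chr8:83566508-83566757, plus strand: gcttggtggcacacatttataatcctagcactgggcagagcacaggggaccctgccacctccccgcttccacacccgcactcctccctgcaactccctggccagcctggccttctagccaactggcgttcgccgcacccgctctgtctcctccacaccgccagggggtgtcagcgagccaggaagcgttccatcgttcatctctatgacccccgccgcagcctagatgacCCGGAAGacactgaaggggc
Both capitalised stretches are CCGGAAG, the core bound by ETS factors such as GABP, at 27 bases before the start of Ndufs3 and 20 bases before that of Ndufb7. The window of Ndufs4 held none of the 4 motifs searched on both strands. These were AAGGTCA, the site of estrogen-related receptors, GCGCATGCG for NRF1, CCGGAAG and AAGATGGCG for YY1.

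Windows were given for 31 of the 34 genes. AAGGTCA occurred in 2 of the 31 (6.5%, Ndufb2 and Ndufs5), against 4.7% of all 27025 genes with a window and 3.5% of the 6712 of them that were tested here. CCGGAAG occurred in 3 (9.7%, Ndufs3, Ndufb6 and Ndufb7), against 7.8% of all genes with a window and 15.6% of the tested genes with a window. GCGCATGCG occurred in 1 (3.2%; Ndufa8), against 1.6% and 3.5%, and AAGATGGCG in 0 (0.0%), against 0.7% and 1.4%. Thus 25 of the 31 genes held none of these letters in the window. Among the 13 genes with a window that were lower after TAC, 1 held CCGGAAG and 1 held AAGGTCA. Among the other 18 genes, 2 and 1 did.

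Signals were analysed as log2(signal + 16) in 1 limma model of the 4 group means over all 16 arrays, and changes are differences between group means of these logs. An adjusted p is a Benjamini-Hochberg value over all 13575 probe sets tested, and "fell", "rose" and "called" refer to adjusted p below 0.05. Of the 68 member probe sets, 65 lay above the signal limit of 130.8 that removed the dimmest 40%. The 3 below it belong to Ndufa12, Ndufab1 and Ndufb9, each of which kept other probe sets. For counts of genes, each gene was represented by its probe set with the highest mean over all arrays, which was above the limit for all 34 genes.

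The arrays had median signals of 189.7 to 222.3 after the authors' scaling, and profiles correlated at 0.914 to 0.949 within groups. RNA and labelling measures moved with the operation. The 3' signal of the Gapdh control divided by its 5' signal was 0.837 to 0.921 in shams and 1.004 to 1.164 after TAC among males. Among females it was 0.785 to 0.918 and 0.958 to 1.026, so that the TAC and sham ranges did not overlap in either sex. The log2 signal of the 5' probe set of 18S rRNA was 12.65 to 13.82 in male shams and 9.06 to 13.16 after TAC, and 10.74 to 12.79 and 9.31 to 10.73 in females. Markers of cell types moved too. Of 10 cardiomyocyte genes, 5 fell in males and 7 in females and none rose, with medians of -0.32 and -0.36. Their summed signal was 314469 to 375442 in shams and 268814 to 321905 after TAC in males, and 336035 to 374684 and 231108 to 298212 in females. After quantile normalization 1 of the 10 was lower in males and 2 in females, and after median centring 2 and 1. Of 7 fibroblast genes 5 rose in males and 4 in females. Their summed signals went from 16664-20468 to 30088-53146 in males and from 20026-23429 to 28563-41963 in females. Those that rose in both sexes were Col1a1, Col1a2, Col3a1 and Postn. In females Lum, Pdgfra and Dcn had changes of -0.40, -0.26 and -0.13, and in males Dcn had -0.08, none past the threshold. Of 5 macrophage genes 4 rose in males and 2 in females, and the summed signal went from 4603-6391 to 7742-8221 in males and from 4696-5244 to 6642-9262 in females. None of the 6 endothelial genes passed the threshold in either sex. The summed signal of 3 atrial genes was 267 to 503 in shams and 338 to 2380 after TAC.

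Some of the complex I genes fell after TAC in each sex, and their falls were small. With the sexes averaged, 14 of 34 genes fell and 0 rose, and no gene changed by as much as 2-fold in either sex. Counts over the 34 genes and over the 65 probe sets include Ndufa4. In males 8 genes fell and in females 9. Ndufs4, Ndufs1, Ndufab1, Ndufa9 and Ndufs3 fell in both sexes. Ndufa12, Ndufv3 and Ndufa10 passed the threshold in males and not in females, Ndufv1, Ndufv2, Ndufb5 and Ndufa4 in females and not in males, and Ndufa7 and Ndufs5 in the average alone. The remaining 20 genes passed in none of the 3 comparisons. The change was negative in both sexes for 25 of the 34 genes. It was negative for 27 genes in males and 26 in females, against 7246 and 7244 of all 13575 probe sets. These signs depended on the scaling. In females 8, 4, 6 and 7 genes of the N module, Q module, proximal arm and distal arm were negative. Under median centring these counts were 7, 3, 5 and 2. Fits on 1 probe set per gene called 7.48% of all 8272 genes lower in males, 6.42% in females and 12.8% averaged. The complex I shares of 23.5%, 26.5% and 41.2% were above this background under the authors' scaling. With each array centred on its median, the share of complex I probe sets was below that of all probe sets in each sex. In bulk tissue, fewer cardiomyocytes in the sample and less RNA per cardiomyocyte cannot be told apart, and the part of cell composition and RNA quality in these differences was not tested.

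Counted over probe sets, 10 of 65 were lower and 2 higher in males, where 9.78% of all probe sets were called lower and 8.07% higher. In females 13 were lower and 1 higher, against 8.6% and 6.46%, and averaged over the sexes 21 were lower and 3 higher, against 15.8% and 12.9%. The member shares called lower were thus 15.4%, 20.0% and 32.3%. Groups did not overlap, with all TAC arrays below all shams, for 11 of 65 probe sets in males (background 10.9%) and for 18 in females (background 11.6%). Without male TAC 2 the male count was 5 and without male sham 4 it was 6. The female count was 7 without female sham 1 or female TAC 3 and 8 without female TAC 2, and the median in females without the latter was -0.076. Without an intensity trend in the limma fit, 5 and 6 probe sets were lower. The median change over the 65 probe sets was -0.129 in males, -0.12 in females and -0.13 averaged, against -0.032, -0.031 and -0.034 over all probe sets.

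These counts depended on the scaling and on the quality measures. Centring each array on its median moved the median of all probe sets in females from -0.031 to 0.085, and the lower share of all female calls from 1168 of 2045 to 733 of 2057. In males it went from 1327 of 2422 to 1031 of 2277, and averaged from 2143 of 3890 to 1550 of 3909. Under that centring 4 of the 65 complex I probe sets were lower and 2 higher in males, 3 and 3 in females, and 10 and 5 averaged. Of all 13575 probe sets tested, 1031 were lower in males, 733 in females and 1550 averaged. The complex I share called lower was thus below that of all probe sets in each sex, and above it averaged. Relative to the median of all probe sets, which centring cannot alter by its construction, the complex I median was -0.097 in males, -0.089 in females and -0.096 averaged. With the 18S signal as a covariate 2, 4 and 6 probe sets were lower, and the complex I median relative to all probe sets was 0.045, 0.005 and 0.013. With the Gapdh ratio as a covariate, which does not overlap between TAC and sham, 0, 1 and 1 were lower, and that relative median was -0.064, -0.08 and -0.069. Among the genes given below with their array values, Ndufs4 alone kept a TAC call with that covariate.

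**Figure D1:**
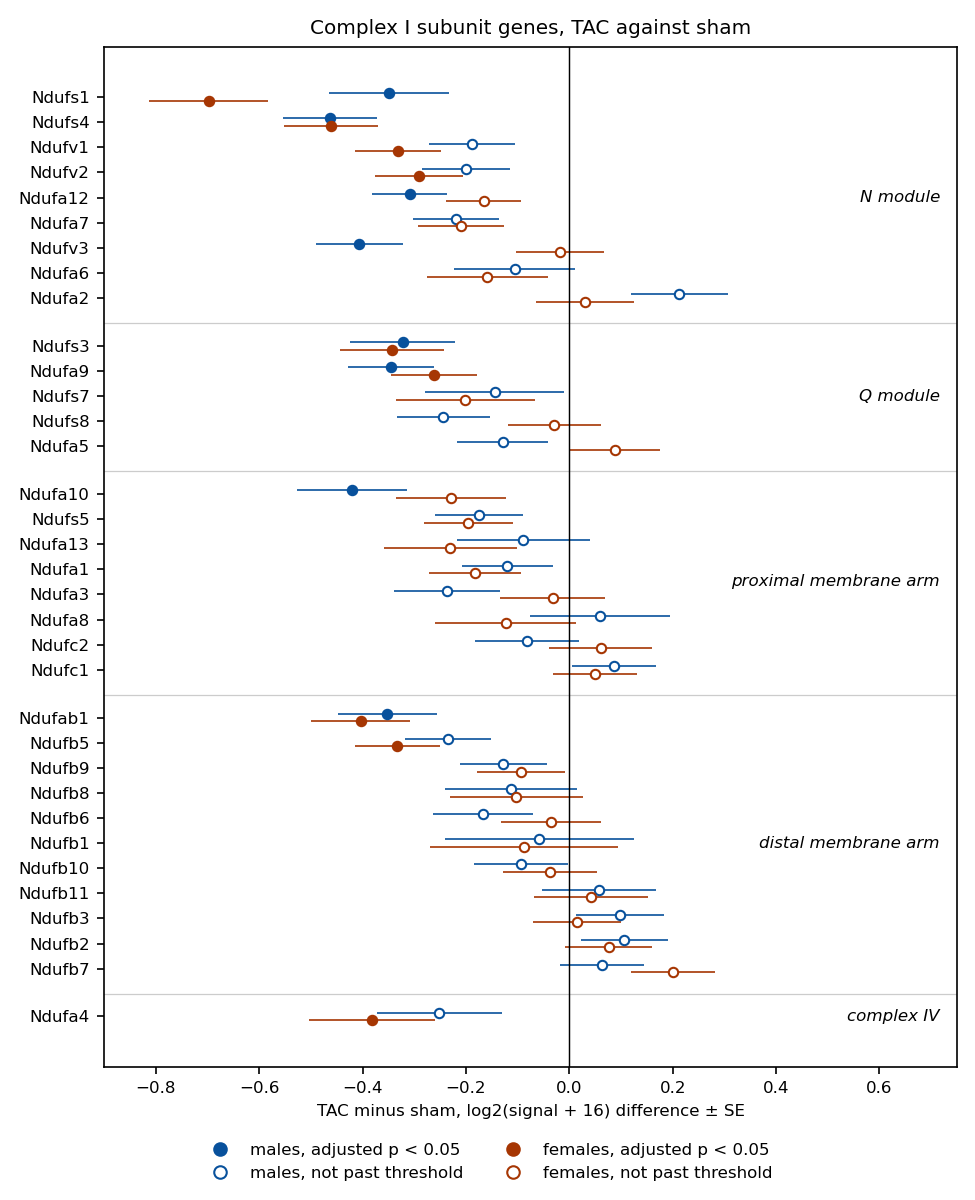
Change after TAC of the 34 genes, 1 probe set each, in males (blue) and females (brown). The horizontal axis is the difference of mean log2(signal + 16), bars are ± SE from limma with n = 4 per group, filled points passed adjusted p below 0.05, and genes are ordered by the averaged change within each module. Most points of the N module lie left of 0, while those of the distal membrane arm lie on both sides.

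The modules differed in their counts. Averaged over the sexes, 7 of 9 N module genes fell, 2 of 5 in the Q module, 2 of 8 in the proximal membrane arm and 2 of 11 in the distal membrane arm, and Ndufa4 fell as well. The averaged background was 12.8% of all genes. The medians over genes in this order were -0.237, -0.173, -0.143 and -0.073 averaged, -0.22, -0.244, -0.104 and -0.094 in males, and -0.21, -0.201, -0.153 and -0.038 in females. In males 4, 2, 1 and 1 genes of the 4 modules fell, and in females 4, 2, 0 and 2, with Ndufa4 besides. Under median centring the averaged counts were 2, 2, 1 and 2 lower, with 1 gene higher in each of the N module and the distal arm, and the distal medians turned to 0.013 averaged and 0.078 in females. Under quantile normalization 5, 2, 2 and 2 genes were lower. The difference between modules was not tested. For comparison, 17 of 46 subunit genes of complexes II to V fell averaged over the sexes and 2 rose, with a median of -0.151, and 9 fell in males and 6 in females.

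On single arrays, the median deviation of the N module genes from their means over the 16 arrays, on the log2 scale, was 0.054 to 0.172 in male shams and -0.154 to -0.09 in male TAC. In females it was 0.062 to 0.209 in shams and -0.193 to -0.102 after TAC. Under the authors' scaling all 8 TAC arrays lay below all 8 sham arrays. Median signals were 206.4 to 222.3 on the sham arrays and 189.7 to 220.4 on the TAC arrays. The deviations of the modules were not recomputed with centred arrays, so whether the separation holds under other scalings was not tested. In the Q module the male ranges were 0.071 to 0.191 and -0.297 to 0.021, and the female ranges 0.009 to 0.161 and -0.175 to -0.044, again with no overlap within a sex. The proximal membrane arm had 0.085 to 0.218 and -0.17 to 0.064 in males, and -0.124 to 0.044 and -0.174 to -0.067 in females, where the groups overlapped. In the distal membrane arm the ranges were -0.022 to 0.109 and -0.096 to 0.004 in males, which overlapped, and 0.002 to 0.05 and -0.072 to -0.015 in females.

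**Figure D2:**
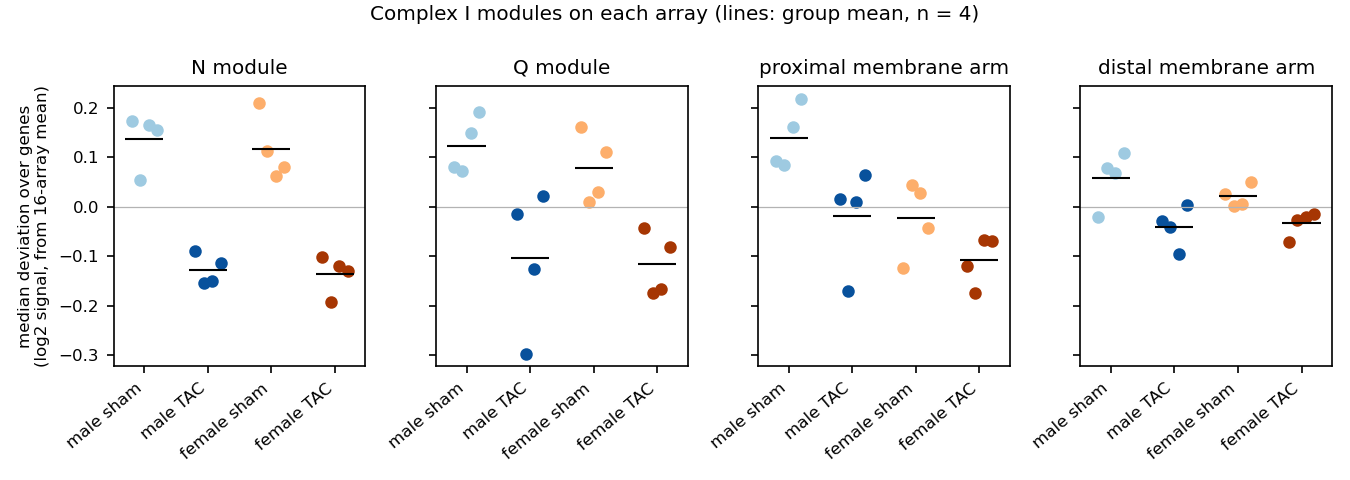
Median deviation of the genes of each module on each array from their mean over the 16 arrays, in log2 signal. Points are arrays, 4 per group, and black lines are group means. Values are under the authors' scaling, without centring of the arrays. On that scale no TAC array reaches a sham array in the N module, and in the distal membrane arm all arrays lie between -0.096 and 0.109.

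In the N module the genes that fell include core subunits of NADH oxidation. Ndufs4, an accessory subunit at the junction of the N and Q modules whose loss causes Leigh-like disease in mice, had the smallest averaged p of all members. Its signals were 6126, 5258, 5935 and 6473 on the male sham arrays and 4730, 4346, 3956 and 4198 on the male TAC arrays. In females they were 5695, 5422, 5534 and 5112 on the female sham arrays and 3986, 4229, 3686 and 3894 on the female TAC arrays. No TAC array reached a sham array of its sex. Ndufs4 fell 1.38-fold in males (log2 change -0.46, SE 0.09, limma adjusted p = 0.00139) and 1.38-fold in females (log2 change -0.46, SE 0.09, limma adjusted p = 0.00178). The probe set 1418117_at of the same gene gave -0.58 in males (limma adjusted p = 0.0707) and -0.77 in females (limma adjusted p = 0.0194), while 1438166_x_at gave 0.07 and 0.16 with neither past the threshold. The female and averaged calls of the brightest probe set held in all alternatives run, at adjusted p up to 0.0391 and 0.0313. The male call was lost with the Gapdh covariate (adjusted p = 0.091).

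Ndufs1, the largest core subunit and the carrier of several iron-sulfur clusters, had signals of 11071, 9008, 10968 and 9781 on the male sham arrays and 7026, 7102, 9163 and 8881 on the male TAC arrays. For females the values were 14539, 10284, 11293 and 12456 on the female sham arrays and 7327, 6906, 7545 and 7926 on the female TAC arrays. The highest male TAC array overlapped the lowest male sham, whereas all female TAC arrays were below all female shams. Ndufs1 fell 1.62-fold in females (log2 change -0.70, SE 0.12, limma adjusted p = 3.66e-04) and 1.27-fold in males (log2 change -0.35, SE 0.12, limma adjusted p = 0.0419). The male call was lost without any one of male sham 1, 3 or 4, male TAC 1 or 2, or female sham 4, at adjusted p of 0.0508 to 0.131. Median centring, no filter, no intensity trend, a fit of the male arrays alone and the 18S covariate also ended it, at adjusted p of 0.0628 to 0.409. The Gapdh covariate ended the male, female and averaged calls, with log2 changes of 0.206 in males (adjusted p = 0.499), -0.322 in females (0.133) and -0.058 averaged (0.844).

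Ndufv1, the core subunit that binds NADH and the flavin, had signals of 12745, 12204, 13672 and 11216 on the male sham arrays and 11997, 10832, 10022 and 10860 on the male TAC arrays. Its female values were 13591, 13296, 13538 and 12866 on the female sham arrays and 11050, 10107, 10968 and 10249 on the female TAC arrays. The groups overlapped in males and not in females. It fell 1.26-fold in females (log2 change -0.33, SE 0.08, limma adjusted p = 0.0098), and the male change was -0.19 (SE 0.08, limma adjusted p = 0.133). Median centring ended the female call (adjusted p = 0.133). Of its other probe sets, 1415967_at gave -0.06 in males and -0.37 in females, the latter past the threshold (limma adjusted p = 0.0143).

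Ndufv2, the core subunit next to Ndufv1 with an iron-sulfur cluster of its own, was read by 3 probe sets that did not move alike. On the brightest, 1428179_at, the signals were 16499, 15460, 16644 and 17800 on the male sham arrays and 15123, 13715, 14333 and 14572 on the male TAC arrays. In females this probe set gave 20928, 17867, 16370 and 17930 on the female sham arrays and 15783, 13878, 14673 and 15251 on the female TAC arrays. Neither sex had overlapping groups. It fell 1.22-fold in females (log2 change -0.29, SE 0.09, limma adjusted p = 0.025), and in males the change was -0.20 (limma adjusted p = 0.116). The female call was lost without female sham 1, female TAC 2 or female TAC 3 (adjusted p 0.055 to 0.0938) and under median centring (0.248). The probe set 1438159_x_at went the other way. It read 5365, 5182, 5089 and 5320 on the male sham arrays and 7649, 8414, 7186 and 9011 on the male TAC arrays, with every male TAC array above every male sham. Its female values were 7847, 5785, 6790 and 7021 on the female sham arrays and 7561, 6590, 6954 and 9552 on the female TAC arrays and overlapped. It rose 1.53-fold in males (log2 change 0.62, SE 0.12, limma adjusted p = 8.98e-04), and the female change was 0.15 (SE 0.12). The third probe set, 1452692_a_at, gave -0.15 and 0.02, with neither past the threshold.

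Ndufa12, the accessory subunit that takes the place of the assembly factor Ndufaf2 when the N module joins, had signals of 25754, 24907, 22457 and 23751 on the male sham arrays and 18937, 19205, 20149 and 19815 on the male TAC arrays. Female arrays read 22568, 23222, 22622 and 21571 on the female sham arrays and 20012, 21260, 19334 and 19616 on the female TAC arrays. TAC lay below sham without overlap in both sexes. It fell 1.24-fold in males (log2 change -0.31, SE 0.07, limma adjusted p = 0.00535), and the female change of -0.17 did not pass (limma adjusted p = 0.137). This probe set ends in _x_at, an ending that marks probes that can be shared with other transcripts, and the probe set 1418814_s_at of the gene fell in both sexes, by 0.35 in males and 0.36 in females on the log2 scale (limma adjusted p = 0.0181 and 0.0171). Quantile normalization ended the male call of the brightest probe set (adjusted p = 0.086), as did the 18S and Gapdh covariates (0.0557 and 0.247). The averaged call of that probe set (log2 change -0.24, limma adjusted p = 0.00149) was lost under quantile normalization (0.108) and median centring (0.0621). It was also lost with the Gapdh covariate (0.246).

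Ndufv3, a small accessory subunit of the N module, had the largest difference in response between the sexes among the 34 representative probe sets. Male signals were 22563, 23989, 26158 and 23484 on the male sham arrays and 18380, 19413, 16685 and 18100 on the male TAC arrays. Female signals were 19289, 19231, 20020 and 18866 on the female sham arrays and 16990, 19316, 21743 and 18666 on the female TAC arrays. Male shams stood above all other arrays, and the female groups overlapped. Ndufv3 fell 1.32-fold in males (log2 change -0.41, SE 0.08, limma adjusted p = 0.00211), and the female change was -0.02 (SE 0.08, limma adjusted p = 0.92). The difference of the responses was 0.39 (SE 0.12) with an unadjusted p of 0.00413 and a limma adjusted p of 0.548, so it did not pass. The male call was lost with the 18S covariate (adjusted p = 0.0556) and with the Gapdh covariate (0.0585). Its averaged call (log2 change -0.21, limma adjusted p = 0.011) was lost under quantile normalization (0.0915) and median centring (0.183).

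Ndufa7, an accessory subunit near the junction with the Q module, fell with the sexes averaged and in neither sex alone (log2 change -0.21, SE 0.06, limma adjusted p = 0.00901), on 1450818_a_at. The averaged call on 1450818_a_at was lost under median centring (adjusted p = 0.163) and with the 18S and Gapdh covariates (0.188 and 0.848). This probe set read 13186, 11255, 12627 and 12592 on the male sham arrays and 10589, 9512, 11739 and 10847 on the male TAC arrays. On female arrays it read 12006, 12002, 11763 and 11808 on the female sham arrays and 9848, 9852, 10685 and 10784 on the female TAC arrays. The groups overlapped in males and not in females. Another of its 5 probe sets, 1455749_x_at, read 798, 1192, 900 and 592 in female shams and 1136, 1343, 1630 and 1257 in female TAC, with overlap. It read 1067, 941, 880 and 1084 in male shams and 1198, 1100, 1021 and 1325 in male TAC. It rose 1.56-fold in females (log2 change 0.65, SE 0.17, limma adjusted p = 0.013), a call lost without female sham 4 or female TAC 3 (adjusted p 0.0544 and 0.0504), and the male change was 0.22. Averaged over the sexes, 1 of the 5 probe sets of Ndufa7 fell, 1 rose and the others did not pass. The remaining N module genes, Ndufa6 and Ndufa2, had changes of -0.13 and 0.12 averaged over the sexes and did not pass. Ndufa2 was the N module gene with a positive change in both sexes.

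In the Q module Ndufs3 and Ndufa9 fell in both sexes. Ndufs3 is a core subunit of the quinone-reducing arm. It read 12626, 10743, 11240 and 11362 on the male sham arrays and 11206, 7973, 8970 and 8819 on the male TAC arrays. In females the array values were 11368, 9861, 10590 and 10402 on the female sham arrays and 9236, 8423, 7858 and 7779 on the female TAC arrays. Male TAC 1 overlapped the male shams, and the female groups were apart. Ndufs3 fell 1.25-fold in males (log2 change -0.32, SE 0.10, limma adjusted p = 0.0314) and 1.27-fold in females (log2 change -0.34, SE 0.10, limma adjusted p = 0.0254). Both calls were near the threshold. Leaving out male sham 1, 3 or 4 or male TAC 2, 4 or 5 ended the male call (adjusted p 0.0569 to 0.116), and leaving out female sham 1 or 3 or female TAC 3 or 5 ended the female call (0.0564 to 0.076). Median centring, no filter, no intensity trend and each of the covariates also ended both calls. The adjusted p was then 0.0622 to 0.768 in males and 0.0514 to 0.46 in females.

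Ndufa9, an accessory subunit that binds a nicotinamide nucleotide near the quinone site, read 11684, 12436, 11827 and 12234 on the male sham arrays and 8950, 8458, 9816 and 10867 on the male TAC arrays. The female arrays gave 11976, 11638, 11840 and 11590 on the female sham arrays and 10164, 9434, 9542 and 10121 on the female TAC arrays. TAC was below sham on every array in both sexes. It fell 1.27-fold in males (log2 change -0.34, SE 0.08, limma adjusted p = 0.00649) and 1.2-fold in females (log2 change -0.26, SE 0.08, limma adjusted p = 0.0389). The female call was lost when any one of the 8 female arrays was left out (adjusted p 0.0521 to 0.0875), and under median centring both calls were lost (0.0504 in males and 0.359 in females). The 18S covariate ended both calls as well (adjusted p = 0.321 in males and 0.231 in females). The core subunits Ndufs7 and Ndufs8 and the accessory subunit Ndufa5 had averaged changes of -0.17, -0.14 and -0.02, none past the threshold. Of the 6 probe sets of Ndufs8, 1423908_at alone fell in the average (-0.22, limma adjusted p = 0.0459), and all 6 averaged changes were negative.

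Ndufa10, an accessory subunit of the proximal membrane arm with the fold of a nucleoside kinase, read 12781, 14560, 14334 and 13529 on the male sham arrays and 12527, 8832, 9246 and 10989 on the male TAC arrays. In females it read 10258, 12507, 11111 and 9864 on the female sham arrays and 8671, 9705, 9358 and 9447 on the female TAC arrays. TAC and sham did not overlap in either sex, though the nearest arrays were close. Ndufa10 fell 1.34-fold in males (log2 change -0.42, SE 0.11, limma adjusted p = 0.00887), and the female change was -0.23 (SE 0.11, limma adjusted p = 0.165). Both covariates ended the male call (adjusted p = 0.168 with 18S and 0.0855 with Gapdh).

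Ndufs5, a subunit on the outer face of the membrane arm, read 12439, 11845, 12967 and 13232 on the male sham arrays and 12622, 10863, 10774 and 10536 on the male TAC arrays. The female values of Ndufs5 were 9867, 11206, 11261 and 11299 on the female sham arrays and 9272, 10366, 9171 and 9283 on the female TAC arrays. The groups overlapped in both sexes, through male TAC 1 among the males and through female sham 1 and female TAC 2 among the females. It fell in the average (log2 change -0.18, SE 0.06, limma adjusted p = 0.0259), a call lost without male sham 4 or female sham 3 (adjusted p 0.0523 and 0.0509) and under median centring (0.303). The other genes of the proximal arm did not pass on their brightest probe sets, with averaged changes from -0.16 for Ndufa13 to 0.07 for Ndufc1. Ndufc2 was split: 1455036_s_at gave -0.01, while 1416366_at fell in males (-0.35, limma adjusted p = 0.0268) and in females (-0.37, limma adjusted p = 0.022).

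In the distal membrane arm, Ndufab1 is the mitochondrial acyl carrier protein, which serves both as a subunit and in the fatty acid synthesis of mitochondria. It read 12595, 14074, 15344 and 16360 on the male sham arrays and 10998, 10156, 11694 and 12823 on the male TAC arrays. Its values in females were 14583, 15430, 14530 and 14069 on the female sham arrays and 12151, 10503, 10460 and 11223 on the female TAC arrays. Male TAC 5 overlapped male sham 1, and in females the groups were apart. Ndufab1 fell 1.28-fold in males (log2 change -0.35, SE 0.10, limma adjusted p = 0.0135) and 1.32-fold in females (log2 change -0.40, SE 0.10, limma adjusted p = 0.00625). The male call was lost without male sham 4 or male TAC 2 (adjusted p 0.0548 and 0.055), and median centring ended both calls (0.0702 and 0.0821). Both were also lost with the 18S covariate (adjusted p = 0.427 in males and 0.0655 in females). These calls are those of the brightest probe set of Ndufab1, whose name ends in _s_at. The other tested probe set of the gene, the dimmer 1428160_at, gave -0.06 in males and -0.11 in females, neither past the threshold.

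Ndufb5, an accessory subunit of the distal arm, read 18653, 15401, 15770 and 16375 on the male sham arrays and 14996, 13096, 13306 and 14798 on the male TAC arrays. Females had 14513, 14231, 15248 and 15782 on the female sham arrays and 12299, 11501, 11690 and 11927 on the female TAC arrays. TAC lay below sham on all arrays of both sexes. It fell 1.26-fold in females (log2 change -0.33, SE 0.08, limma adjusted p = 0.00899), and the male change of -0.23 was just outside (limma adjusted p = 0.0551), coming inside without male sham 2 (0.0481) or male TAC 1 (0.0476). Median centring ended the female call (0.163). Its other probe set, 1417102_a_at, gave -0.17 in males and 0.22 in females, neither past the threshold. The other 9 genes of the distal arm did not pass on their brightest probe sets, from -0.11 for Ndufb9 to 0.13 for Ndufb7 in the average.

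Of these, Ndufb2 had a probe set that rose. On 1416834_x_at the signals were 5980, 7080, 6642 and 8216 on the male sham arrays and 8264, 7893, 8446 and 9696 on the male TAC arrays. Female signals on it were 8773, 7887, 7210 and 7411 on the female sham arrays and 8973, 8453, 8304 and 8439 on the female TAC arrays. The groups overlapped in both sexes. It rose 1.23-fold in males (log2 change 0.30, SE 0.10, limma adjusted p = 0.0442), and 1448483_a_at of the same gene gave 0.11 (limma adjusted p = 0.44). This call was lost in 12 of the single-array omissions (adjusted p 0.0504 to 0.152), 6 of them male arrays. Among the probe sets of Ndufb6, 1434057_at fell in the average (-0.25, limma adjusted p = 0.0109), while the brighter 1434056_a_at gave -0.10.

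Ndufa4, the member assigned to complex IV, read 20379, 20879, 20962 and 24213 on the male sham arrays and 14725, 16782, 20573 and 21139 on the male TAC arrays. The female signals of Ndufa4 were 29394, 23546, 22608 and 21744 on the female sham arrays and 19390, 15770, 18735 and 20591 on the female TAC arrays. It overlapped in males and not in females. Ndufa4 fell 1.3-fold in females (log2 change -0.38, SE 0.12, limma adjusted p = 0.0383), and in males the change was -0.25 (SE 0.12, limma adjusted p = 0.171). The female call was lost without female sham 1, 2 or 3 or female TAC 1, 2 or 3, at adjusted p of 0.051 to 0.138. Quantile normalization (0.122), median centring (0.191), no filter (0.0909) and no intensity trend (0.0991) also ended it. So did the 18S and Gapdh covariates (0.161 and 0.74). The averaged call was lost under quantile normalization (0.077), median centring (0.0702) and with the 18S covariate (0.275). With the Gapdh covariate the averaged value went from -0.32 to 0.0 (adjusted p = 0.999).

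**Figure D3:**
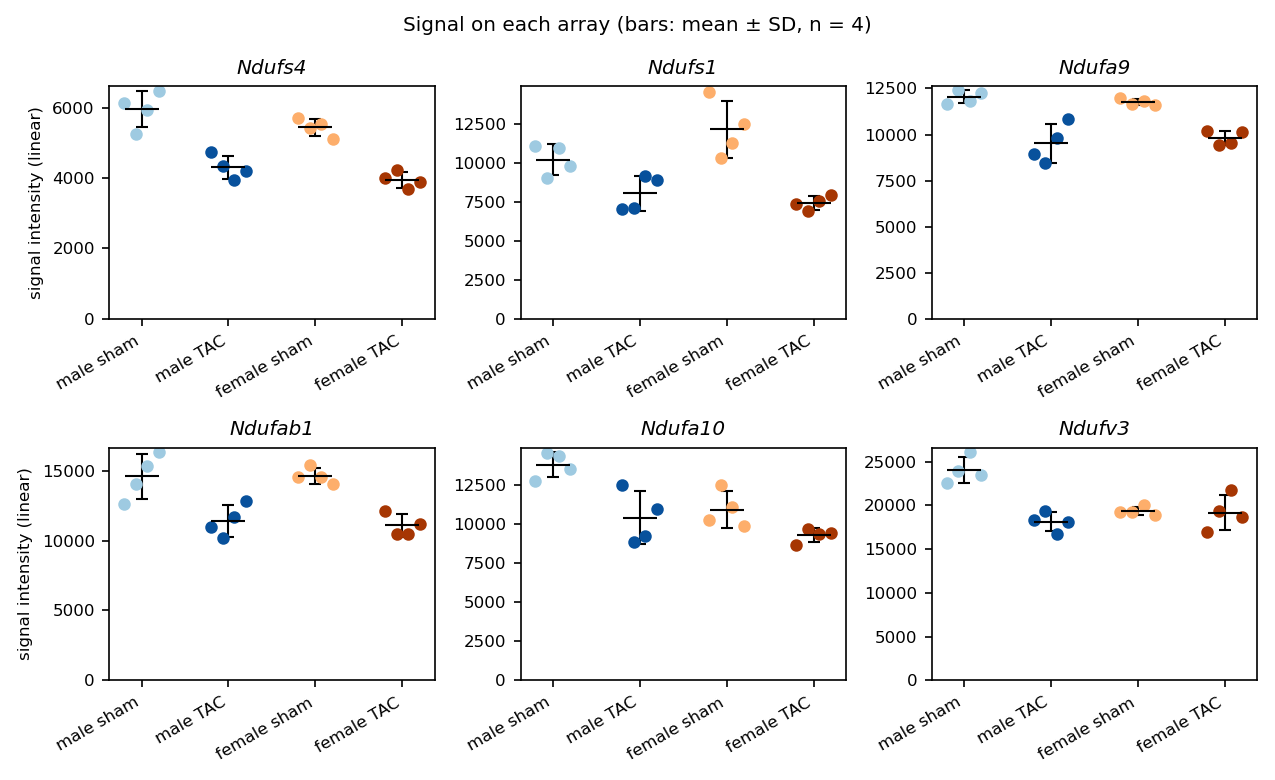
Signal of 6 complex I genes on each array, on a linear axis that starts at 0. Points are arrays, 4 per group, and black bars give the mean ± SD. Ndufs4 and Ndufa9 are lower after TAC in both sexes without overlap, and for Ndufv3 the male sham arrays stand above the other 3 groups.

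All 3 member probe sets that rose, for Ndufv2, Ndufa7 and Ndufb2, have names ending in _x_at, which marks probes that can also bind transcripts of other genes. Averaged over the sexes, 3 of the 14 _x_at probe sets rose and 2 fell, with a median change of -0.084. Of the 27 _at probe sets 13 fell and 0 rose, with a median of -0.224. Of the 19 _a_at probe sets, which share probes among transcripts of 1 gene, 4 fell, and of the 5 _s_at probe sets 2 fell, and none of either kind rose. The genes differ between these kinds, and the difference was not tested. Of the 19 genes with more than 1 tested probe set, 14 had 1 sign over all their probe sets, and Ndufs4, Ndufv2, Ndufa7, Ndufb5 and Ndufb11 had both. Probe sequences were not used here.

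**Figure D4:**
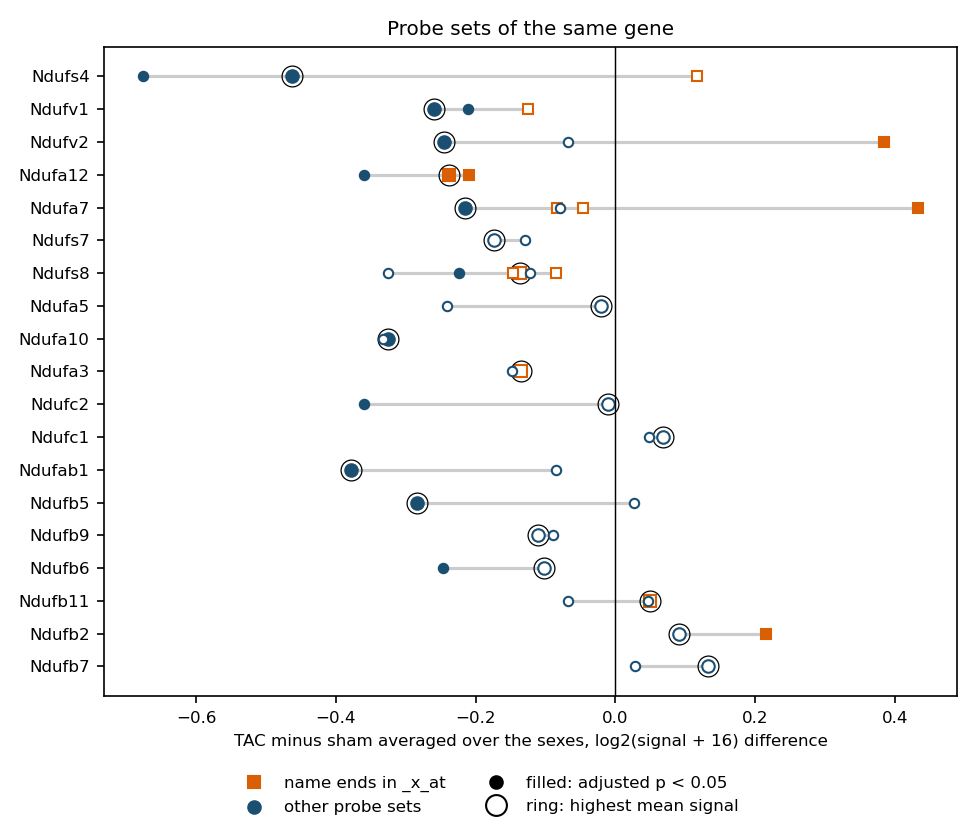
Averaged change after TAC of every tested probe set of the 19 genes with more than 1, on the axis of log2(signal + 16) differences. Squares are probe sets ending in _x_at, circles are others, filled symbols passed adjusted p below 0.05, and a ring marks the probe set with the highest mean signal. The filled symbols right of 0 are 3 squares, for Ndufv2, Ndufa7 and Ndufb2.

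Whether the sexes responded differently was tested directly. For the female response minus the male response, 0 of 65 member probe sets passed (limma; background 0.0%), and 5 had an unadjusted p below 0.05, or 7.69%, against 897 or 6.61% of all probe sets. Besides Ndufv3, the smallest p values over genes were those of Ndufs1 (difference -0.35, SE 0.16, unadjusted p = 0.0455, limma adjusted p = 0.756), with the larger fall in females, and of Ndufa5 (0.22, SE 0.12, limma adjusted p = 0.827). Ndufa5 had values of -0.13 in males and 0.09 in females, neither past the threshold. So a call in 1 sex alone, as for Ndufa12 or Ndufv1, does not show a difference between the sexes.

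Levels were also compared between females and males of the same operation. Among shams 0 of 65 member probe sets passed (background 0.309%), with 10 at an unadjusted p below 0.05, or 15.38%, against 10.49% of all probe sets. The smallest p values were those of Ndufv3 (female minus male -0.31, SE 0.08, limma adjusted p = 0.145), Ndufa10 (-0.34, SE 0.11, limma adjusted p = 0.245) and Ndufs5 (-0.21, SE 0.09, limma adjusted p = 0.387). Among TAC animals 0 of 65 passed (background 0.0663%), with 5 at an unadjusted p below 0.05, or 7.69%, against 6.45% of all. Here the smallest were Ndufb5 (-0.24, limma adjusted p = 0.666), Ndufs5 (-0.23, limma adjusted p = 0.71) and Ndufa13 (-0.31, limma adjusted p = 0.718). Ndufa13 read 25712, 25844, 27286 and 31035 on the male sham arrays and 28597, 18856, 25828 and 31582 on the male TAC arrays. In females Ndufa13 read 20534, 25130, 27079 and 25213 on the female sham arrays and 22820, 21230, 18440 and 20810 on the female TAC arrays. The female TAC arrays all lay under 3 of the 4 male TAC arrays, and male TAC 2 lay among them. Ndufa1 and Ndufb11, the members on the X chromosome, had sham differences of 0.02 and -0.02 with unadjusted limma p of 0.858 and 0.868. The comparisons of the sexes share their sham or TAC arrays with the TAC comparisons.

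Other genes around complex I were read from lists. These were chosen with earlier results of these data known, so their shares beside the background are a description only. The mitochondrial genome encodes further core subunits, of which ND5, a proton-pumping subunit at the far end of the membrane arm, was the 1 of 7 with a 1-symbol probe set. It fell in males (-0.58, SE 0.11, limma adjusted p = 9.05e-04) and in females (-0.62, SE 0.11, limma adjusted p = 6.37e-04), with mean signals in males of 55200 ± 6485 in shams and 36770 ± 2106 after TAC, and in females of 49980 ± 5327 and 32640 ± 5176 (SD, n = 4). After quantile normalization the changes were -0.33 and -0.26, and the female one did not pass.

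Assembly factors build the complex and do not stay in it. Of 14 measured of 20 listed, 1 fell in males, 2 in females and 3 in the average, and 1 rose in the average. The shares that fell were 7.1%, 14.3% and 21.4%, against 7.48%, 6.42% and 12.8% of all genes. Tmem70, a membrane protein needed for the assembly of ATP synthase and of complex I, fell in both sexes (-0.81 in males and -0.58 in females, limma adjusted p = 8.48e-05 and 0.00221). Ecsit, a member of the assembly complex of the membrane arm, fell in females (-0.45, limma adjusted p = 0.0315), with -0.26 in males. Aifm1, needed for the import of small cysteine-rich mitochondrial proteins, fell in the average (-0.25, limma adjusted p = 0.0279), and Timmdc1 rose in the average (0.66, limma adjusted p = 0.0433). The median over the 14 was -0.061 in males, -0.109 in females and -0.101 averaged, and the female median turned to 0.007 under median centring. None of the 5 measured factors named Ndufaf passed in any TAC comparison.

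Complex I is not the only source of electrons for ubiquinone. Of 11 genes for the other entries, all 11 had negative changes in both sexes, with medians of -0.426, -0.522 and -0.439 in males, females and averaged. Of these 6 fell in males, 6 in females and 8 averaged, or 54.5%, 54.5% and 72.7% beside the same background. As the list was chosen with earlier results known, the shares are no independent evidence. All 11 stayed negative under both other scalings. Etfdh, which passes electrons from fatty acid oxidation to ubiquinone, fell in both sexes (-0.96 in males and -0.78 in females, SE 0.08 in both, limma adjusted p = 3.31e-07 and 5.61e-06). Etfa and Etfb, the flavoprotein that feeds it, fell by 0.35 and 0.33 in males and by 0.58 and 0.52 in females on the log2 scale. Sdha, the flavin subunit of complex II, fell in both sexes (-0.52 and -0.53).

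Of 11 regulators of mitochondrial genes, 2 fell in males, 1 in females and 3 averaged, and none rose, with medians of -0.266, -0.139 and -0.223. The shares that fell were 18.2%, 9.1% and 27.3%, against 7.48%, 6.42% and 12.8% of all genes. Gabpa, the DNA-binding subunit of GABP, fell in both sexes (-0.61 and -0.77, SE 0.20 in both, limma adjusted p = 0.0358 and 0.0106). Ppargc1a, a coactivator of mitochondrial biogenesis, fell in males (-0.57, limma adjusted p = 0.0338), with -0.32 in females. Esrrg, an estrogen-related receptor, fell in the average (-0.33, limma adjusted p = 0.0363). Esrra, Nrf1, Tfam and Yy1 had averaged changes of -0.04, -0.01, 0.06 and 0.05 and did not pass. Under median centring 0, 1 and 2 of the 11 regulators were lower.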

How the data were processed

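The files give signal intensity per probe set, deposited by the authors on a linear scale, for 16 arrays of left ventricular RNA, 1 per animal. Per the submitters' processing notes the signals were made with GCOS; version and settings are not given in the sources used here. The values had been scaled globally before deposit, as tested on them: the trimmed mean was 499.94 to 499.95 on every array. That scaling was kept. Detection calls were not used, so dimness and absence are not separated. Precision is limited by the number of arrays.

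The platform annotation gave 1 symbol for 20380 probe sets, several for 691 and none for 1555. Of the 20380, 20351 were found by Entrez ID in RefSeq tables of GRCm38.p6, and 0 symbols changed. Removing 64 control probe sets and then the dimmest 40% by mean log2(signal + 16) left 13575.

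Tests used limma 3.58.1 (R 4.3.3): a model of 4 group means over all arrays, eBayes with trend, 2-sided, adjusted by Benjamini-Hochberg. Scripts were tested on simulated data. Named with values were the 12 genes of smallest averaged p, up to 2 more per module so that each had at least 2, members that rose and, for sex, the 3 of smallest p. Members and gene lists were chosen with earlier results of these data known. Alternatives covered normalization, pseudocount, filter, trend, array weights, 1 probe set per gene, groups in the fit, a replicate block, 2 quality covariates and each array left out. Promoter windows came from RefSeq.

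Replicate numbers of the titles were checked for pairing. Deviations from group means of same-numbered arrays correlated at -0.031 to 0.115, so the numbers were not taken to pair animals.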

Additional observations from a re-analysis of the deposited data

Results flagged for a closer look

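Within groups of 4 arrays, 6 values stood apart from the other 3 by Dixon's criterion, out of 100 groups tested, where chance gives about 5 per 100. Ndufs5 accounts for 3 of them: a signal of 12621.9 on male TAC 1, above the other male TAC arrays, 9866.7 on female sham 1, below the other female shams, and 10366.5 on female TAC 2, above the other female TAC arrays. Ndufa4 read 24213.0 on male sham 4, above the other male shams. The median deviation of the N module genes was 0.054 on male sham 2, the lowest of its group and, under the authors' scaling, still above all TAC arrays. The log2 signal of the 5' 18S rRNA probe set was 13.16 on male TAC 5, where the other male TAC arrays had 9.06 to 9.54.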

How the results depend on the processing

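Under median centring 4 complex I probe sets were lower in males, 3 in females and 10 averaged, with medians of -0.073, -0.004 and -0.044. The share in each sex was then below that of all probe sets, and the averaged share above it. Without the intensity trend 5 were lower in males and 6 in females. With the 18S covariate 2, 4 and 6 were lower, with medians of -0.04, -0.062 and -0.065, and with the Gapdh covariate 0, 1 and 1. In the Gapdh fit the Ndufs1 value in males was 0.206, of the opposite sign to the report, and the averaged Ndufa4 value was 0.0, no change. The cause was not tested, and the Gapdh ratio does not overlap between TAC and sham. Leaving out 1 array gave 5 to 12 lower probe sets in males, with 5 without male TAC 2 and 6 without male sham 4, and 7 to 13 in females, with 7 without female sham 1 or female TAC 3 and 8 without female TAC 2. The female median then ranged from -0.147 to -0.076, the latter without female TAC 2. With a replicate block 10, 13 and 22 were lower; the numbers do not pair the animals. Over the genes with values and all alternatives, 1536 values stayed on their side of the threshold, 168 lost the call, 5 gained it, and 2 of a called result changed sign or went to 0. Among the others, 5 changed sign. The 1536 include results that were not called in the main fit and stayed uncalled, so they are not all kept calls.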
